A study of Homo sapiens with 6 samples.

Results

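The genes described here encode the adherens junction, the belt of cadherins and catenins that holds neighbouring cells together and ties them to actin. They are 10 genes chosen by symbol: 3 classical cadherins (CDH5, CDH1 and CDH2), 4 catenins (CTNNB1, JUP, CTNND1 and CTNNA1), the actin linkers VCL and AFDN, and the nectin NECTIN2. All 10 had a row among the 17104 genes of the deposited count table. RNA-seq was performed on HBMEC, labelled as a human brain microvascular endothelial cell line, in 2 groups of 3 libraries. The OGD libraries, by their titles and the design text, are from cells that went through OGD/R, a model of stroke in which oxygen and glucose are withdrawn and then given back. The CON libraries are from cells kept in normal culture. How long each phase lasted is not stated in the sources used here. Separate cultures are not mentioned for libraries within a group, so p-values measure only the spread between these libraries, which may be technical. All values come from 1 cell line.

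Classical cadherins bind their own kind on the neighbouring cell through their outer domains. Inside the cell the tail of a cadherin holds p120 catenin (CTNND1), which keeps the cadherin at the surface, and beta-catenin (CTNNB1) or its relative plakoglobin (JUP). These in turn bind alpha-catenin (CTNNA1), which grips actin and recruits vinculin (VCL) under tension. Nectins form a second adhesive layer that is linked to actin through afadin (AFDN). In brain endothelium, VE-cadherin (CDH5) is the main junctional cadherin and a part of the blood-brain barrier, while free beta-catenin can enter the nucleus and drive TCF target genes.

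After OGD/R, CDH5 transcripts rose 1.76-fold, and the transcripts of CTNNB1, JUP, VCL and NECTIN2 rose by small amounts (1.10- to 1.11-fold). AFDN transcripts fell to 0.877 of the CON level. CDH1, CDH2, CTNND1 and CTNNA1 did not pass the test. In all, 5 of 10 genes rose and 1 fell (quasi-likelihood test of edgeR, threshold 0.05 on the adjusted p), while 19.7% of all genes in the table passed. The higher calls made up 10.2% of all genes and the lower calls 9.48%. With total-count scaling the split over all genes was 1383 higher and 2098 lower, against 1749 and 1621 with TMM, and 4 of the 10 genes then rose and 1 fell. In 8 of the 10 genes the OGD and CON libraries did not overlap, against 33% of all genes. The median log2 fold change was 0.14 for the 10 genes and 0.00 for all genes. Without OGD replicate 1, only CDH5, VCL and AFDN passed, so the count was 3 in place of 6.

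**Figure D1:**
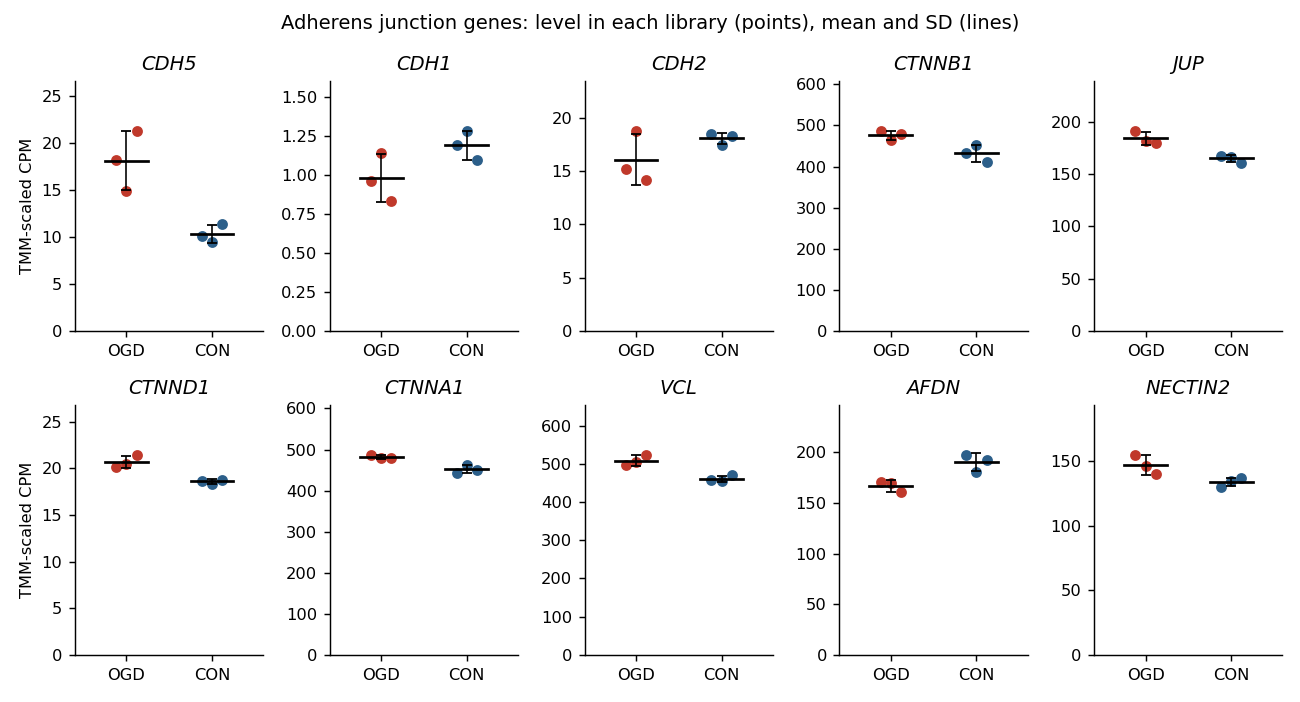
Level of each adherens junction gene in each library, as CPM (counts scaled to library size with TMM factors), with OGD libraries on the left and CON libraries on the right of each panel; black lines give the mean and SD of 3 libraries, and each axis starts at 0. CDH5 stands at 14.9 to 21.3 CPM in OGD libraries and at 9.47 to 11.4 CPM in CON libraries, while the other genes move by much less or overlap.

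Of CDH5, CDH2 and CDH1, CDH5 alone passed the test. CDH5 (ENSG00000179776) was at 18.2, 14.9 and 21.3 CPM in OGD replicates 1, 2 and 3, and at 10.1, 9.47 and 11.4 CPM in CON replicates 1, 2 and 3. Every OGD library lay above every CON library, although the OGD libraries differed among themselves, with replicate 2 lowest and replicate 3 highest. The log2 fold change was 0.81 ± 0.11 (SE, n = 3 libraries per group, edgeR adjusted p = 2.71e-07). These values rest on 457 to 713 reads per OGD library and on 318 to 376 reads per CON library. CDH5 passed under all 17 settings tried, with log2 fold changes of 0.68 to 0.93. No exon base of CDH5 overlaps another gene in GENCODE 29.

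CDH2, or N-cadherin, is found in neural and mesenchymal cells and also in endothelium, where it contacts pericytes. CDH2 (ENSG00000170558) was at 15.2, 18.7 and 14.2 CPM in OGD replicates 1, 2 and 3, and at 18.5, 17.5 and 18.3 CPM in CON replicates 1, 2 and 3. OGD replicates 1 and 3 were below all CON libraries and replicate 2 was above them, so the groups overlapped. The log2 fold change was −0.17 ± 0.10 (edgeR adjusted p = 0.246). OGD replicate 2 thus had the lowest CDH5 and the highest CDH2 level of its group.

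CDH1, or E-cadherin, is the cadherin of epithelia. CDH1 (ENSG00000039068) had 0.962, 1.14 and 0.835 CPM in OGD replicates 1, 2 and 3, against 1.19, 1.28 and 1.09 CPM in CON replicates 1, 2 and 3. The groups overlapped, and the log2 fold change was −0.28 ± 0.35 (edgeR adjusted p = 0.646). With 28 to 35 reads per OGD library and 36 to 43 per CON library, a change of this size was not detectable at this depth.

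Because a longer transcript yields more reads at the same abundance, the 3 cadherins were set against each other per length, as CPM per 1000 bases of annotated exons. On this scale CDH5 stood at 2.98 ± 0.52 in OGD libraries and 1.70 ± 0.16 in CON libraries (mean ± SD, n = 3 each). The level of CDH2 per length was 3.24 ± 0.48 in OGD libraries and 3.65 ± 0.11 in CON libraries. That of CDH1 was 0.159 ± 0.025 in OGD libraries and 0.193 ± 0.015 in CON libraries. In CON libraries CDH2 was therefore the most abundant of the 3, and in OGD libraries the ranges of CDH2 and CDH5 overlapped.

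As a share of the summed level of the 3 genes, CDH5 held 48.1%, 38.2% and 53.8% in OGD replicates 1, 2 and 3, and 29.7%, 29.4% and 32.7% in CON replicates 1, 2 and 3. The CDH2 share was 49.4%, 58.9% and 44.1% in OGD replicates 1, 2 and 3, and 66.9%, 66.7% and 64.2% in CON replicates 1, 2 and 3. The CDH5 share was higher by 16.1 percentage points in OGD libraries, with no overlap between groups (two-sided exact permutation test p = 0.1, the smallest that 3 libraries against 3 can give). CDH1 held 2.08% to 2.88% in OGD libraries and 3.08% to 3.91% in CON libraries.

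**Figure D2:**
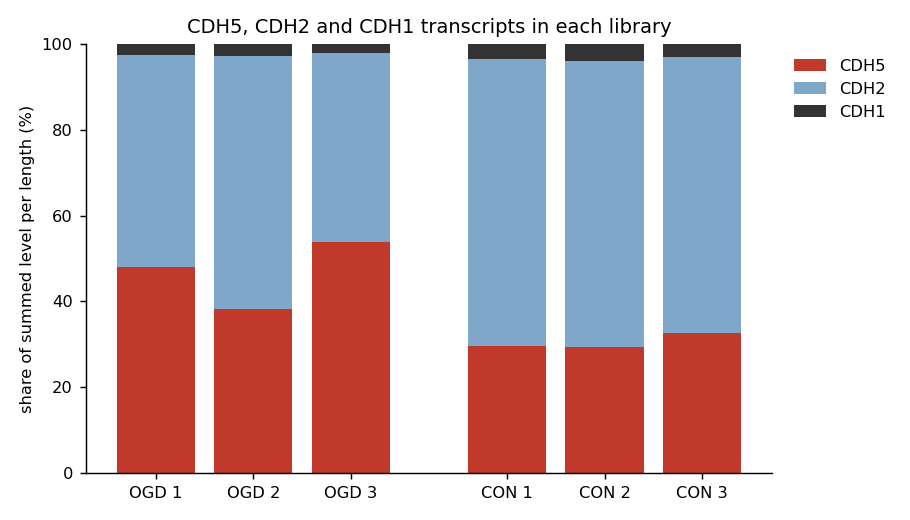
Share of CDH5, CDH2 and CDH1 in their summed level per length (percent, vertical axis), 1 bar per library, with OGD libraries left of CON libraries. The CDH5 part takes 38.2% to 53.8% of the bar in OGD libraries and 29.4% to 32.7% in CON libraries.

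Within each library the log2 ratio of CDH5 to CDH2 was 0.17 ± 0.45 in OGD libraries and −0.78 ± 0.11 in CON libraries (SD, n = 3 each, pseudocount 0.5 CPM). That of CDH5 to CDH1 was 3.64 ± 0.40 in OGD libraries and 2.68 ± 0.21 in CON libraries. Neither ratio overlapped between groups (two-sided exact permutation p = 0.1 each, adjusted p = 0.25 over the 5 pairs compared). The log2 ratio of CDH2 to CDH1 was 3.48 ± 0.06 in OGD libraries and 3.46 ± 0.11 in CON libraries, and the groups overlapped (exact permutation p = 1).

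Both beta-catenin and plakoglobin, the pair of armadillo proteins that occupy the same site on the cadherin tail, rose in transcript level by similar amounts. CTNNB1 (ENSG00000168036) was at 486, 465 and 479 CPM in OGD replicates 1, 2 and 3, against 434, 452 and 411 CPM in CON replicates 1, 2 and 3. The groups did not overlap, but the gap between the lowest OGD and the highest CON library was small beside the spread of the CON group. The log2 fold change was 0.14 ± 0.04 (edgeR adjusted p = 0.0102). This call ended without CON replicate 3 (0.11, edgeR adjusted p 0.126) and without OGD replicate 1 (0.13, 0.0536).

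JUP (ENSG00000173801), which also serves desmosomes, was at 191, 181 and 179 CPM in OGD replicates 1, 2 and 3, against 167, 166 and 161 CPM in CON replicates 1, 2 and 3. All OGD libraries lay above all CON libraries. The log2 fold change was 0.16 ± 0.04 (edgeR adjusted p = 0.00635), and the call ended without OGD replicate 1 (0.13, adjusted p 0.0604). The log2 ratio of JUP to CTNNB1 was −1.37 ± 0.04 in OGD libraries and −1.39 ± 0.05 in CON libraries (SD, n = 3 each), and the groups overlapped (two-sided exact permutation p = 0.6).

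The alpha-catenin gene CTNNA1 (ENSG00000044115) was at 487, 479 and 480 CPM in OGD replicates 1, 2 and 3, against 444, 463 and 451 CPM in CON replicates 1, 2 and 3. The groups did not overlap, yet the log2 fold change of 0.09 ± 0.04 did not pass (edgeR adjusted p = 0.101). It passed with DESeq2 (0.09, adjusted p 0.0374) and without CON replicate 2 (0.11, edgeR adjusted p 0.0445). The p120 catenin gene CTNND1 (ENSG00000198561) was at 20.2, 20.5 and 21.4 CPM in OGD replicates 1, 2 and 3, against 18.6, 18.3 and 18.8 CPM in CON replicates 1, 2 and 3. Its groups did not overlap either, and its log2 fold change was 0.16 ± 0.09 (edgeR adjusted p = 0.238). RefSeq annotates a read-through transcript, TMX2-CTNND1, that starts upstream of CTNND1 and ends near its end, so reads in shared exons may have been lost or assigned elsewhere and the level of CTNND1 is uncertain.

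Vinculin, which binds stretched alpha-catenin and also sits in focal adhesions, rose at the transcript level. VCL (ENSG00000035403) was at 498, 504 and 524 CPM in OGD replicates 1, 2 and 3, against 458, 455 and 470 CPM in CON replicates 1, 2 and 3. Every OGD library was above every CON library. The log2 fold change was 0.14 ± 0.04 (edgeR adjusted p = 0.00738) and the call ended without OGD replicate 3 (0.12, adjusted p 0.0765). Of the VCL exon bases, 11.1% overlap another annotated gene. Vinculin and alpha-catenin belong to the same protein family, and the log2 ratio of VCL to CTNNA1 was 0.08 ± 0.05 in OGD libraries and 0.03 ± 0.04 in CON libraries, with overlap (exact permutation p = 0.3).

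In the nectin layer NECTIN2 rose and the linker gene AFDN fell, and neither call held under every setting. The opposite direction covers NECTIN2 only, since NECTIN1 (−0.14) and NECTIN3 (−0.23) did not pass and the relative PVR fell (−0.40). NECTIN2 (ENSG00000130202), an adhesion molecule that also binds immune receptors, was at 155, 146 and 140 CPM in OGD replicates 1, 2 and 3, against 130, 135 and 137 CPM in CON replicates 1, 2 and 3. The lowest OGD library was just above the highest CON library. The log2 fold change was 0.14 ± 0.05 (edgeR adjusted p = 0.0294). This call was the least stable of the 6, ending with total-count scaling (0.11, edgeR adjusted p 0.107), without CON replicate 1 (0.12, 0.0941), without OGD replicate 1 (0.10, 0.22) and without OGD replicate 2 (0.14, 0.0834).

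AFDN (ENSG00000130396), the afadin gene, was at 171, 169 and 160 CPM in OGD replicates 1, 2 and 3, against 198, 181 and 193 CPM in CON replicates 1, 2 and 3. All OGD libraries lay below all CON libraries, and the log2 fold change was −0.19 ± 0.04 (edgeR adjusted p = 0.00125). The fall of AFDN was −0.10 (edgeR adjusted p 0.054) once a trend on transcript length and GC content was removed from each library, and this was the only one of 16 alternatives in which the call ended. AFDN has a long transcript (7593 bases for the longest annotated one). Each library's deviation from the mean correlated with transcript length across genes. The Spearman rank correlation was −0.334 to −0.231 in OGD libraries and 0.042 to 0.441 in CON libraries. VCL, with a transcript of 7995 bases, rose both without and with the correction (0.14 and 0.23). The part of transcript length in the fall of AFDN was not tested. With this correction 6 of the 10 genes rose and none fell, where 10.3% of all genes rose and 8.92% fell. The log2 fold changes of the 5 genes that rose were 0.85 (CDH5), 0.15 (CTNNB1), 0.19 (JUP), 0.23 (VCL) and 0.11 (NECTIN2), all past the threshold, and CTNNA1 was the sixth gene to pass (0.09, edgeR adjusted p 0.0415).

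**Figure D3:**
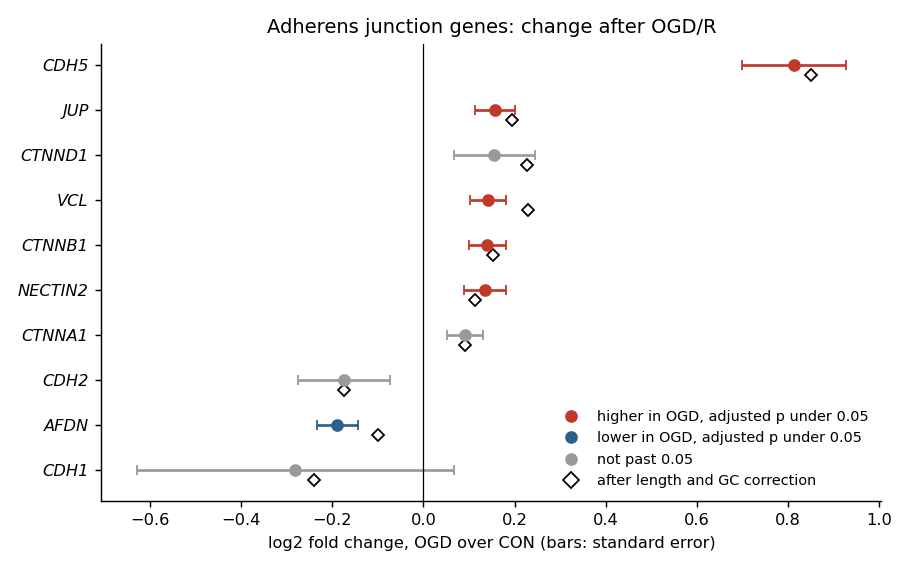
Log2 fold change of OGD over CON for each adherens junction gene, with its standard error (filled points and bars), and the value with the length and GC trend removed (open diamonds). CDH5 stands at 0.81, the other genes that rose at 0.14 to 0.16, and AFDN moves from −0.19 to −0.10 with the correction.

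Promoter sequences are shown for the genes that rose and the one that fell with a single listed start, since their transcripts moved in opposite directions: 250 bases before the start of CTNNB1 (chr3:41199255-41199504), VCL (chr10:73997866-73998115), NECTIN2 (chr19:44846047-44846296) and AFDN (chr6:167827385-167827634), all on the plus strand of GRCh38.p14, from RefSeq. Capitals mark GGAAG or its reverse complement CTTCC, one form of the GGAA core bound by ETS factors.
CTNNB1: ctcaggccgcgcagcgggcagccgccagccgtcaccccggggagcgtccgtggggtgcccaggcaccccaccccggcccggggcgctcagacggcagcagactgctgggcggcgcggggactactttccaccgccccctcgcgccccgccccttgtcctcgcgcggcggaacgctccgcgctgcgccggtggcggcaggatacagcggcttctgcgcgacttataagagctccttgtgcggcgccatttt
VCL: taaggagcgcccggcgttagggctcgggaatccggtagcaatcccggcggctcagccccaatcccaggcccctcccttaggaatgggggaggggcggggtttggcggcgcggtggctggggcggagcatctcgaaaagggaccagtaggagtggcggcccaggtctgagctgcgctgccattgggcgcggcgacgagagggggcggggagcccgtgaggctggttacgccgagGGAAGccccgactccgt
NECTIN2: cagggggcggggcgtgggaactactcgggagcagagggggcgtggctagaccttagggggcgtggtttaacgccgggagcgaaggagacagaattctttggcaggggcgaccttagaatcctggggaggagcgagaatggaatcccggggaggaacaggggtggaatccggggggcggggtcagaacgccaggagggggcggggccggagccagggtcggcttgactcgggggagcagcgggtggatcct
AFDN: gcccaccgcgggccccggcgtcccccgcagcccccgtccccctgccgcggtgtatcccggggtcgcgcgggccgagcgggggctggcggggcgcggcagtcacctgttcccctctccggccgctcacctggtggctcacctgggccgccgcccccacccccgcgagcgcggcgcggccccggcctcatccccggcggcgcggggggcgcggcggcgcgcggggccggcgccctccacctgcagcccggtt
All 4 windows were rich in G and C, with 84.8% for AFDN, 74.4% for CTNNB1, 70.4% for VCL and 67.6% for NECTIN2. GGAAG was present once in VCL and in none of the other windows shown. It was found on either strand in 65.1% of 35116 promoter windows of the same length. GGAA followed by another base was not marked or counted. ACGTG (reverse complement CACGT), one form of the core of the hypoxia response element, was in none of the 4, and in 18.5% of all windows. The other form, GCGTG, was not counted, and the NECTIN2 window shown holds it. Of the 10 genes, 7 had an entry in this promoter table, the others being CDH5, CDH1 and CTNND1.

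Per length, CTNNA1, VCL, CTNNB1, NECTIN2 and JUP were far more abundant than the cadherins, and CTNND1 was in the range of the cadherins. In OGD libraries the order was CTNNA1 (54.6 CPM per 1000 bases), VCL (50.9), CTNNB1 (39.96), NECTIN2 (39.3), JUP (37.2), AFDN (12.2), CDH2 (3.24), CDH5 (2.98), CTNND1 (2.35) and CDH1 (0.159). In this order the ranges of CTNNB1 and NECTIN2, of NECTIN2 and JUP, and of CDH2 and CDH5 overlapped, and those of the other neighbours did not. In CON libraries the order was the same except that CTNND1 (2.11) stood above CDH5 (1.70), and of the neighbours only CTNNB1 (36.2) and NECTIN2 (35.8) overlapped. With the longest transcript as the length, CTNNB1 stood above VCL in both groups and CDH5 above CDH2 in OGD libraries.

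The 11 lists of other genes around the junction were chosen with earlier results of these data known. They hold 157 genes, of which 124 had a row, and 12 of these rose and 25 fell. That is 29.8% called, against 19.7% of all genes, of which 10.2% rose and 9.48% fell. No test compared the lists with these shares, and in the smaller lists a low count can lie near them. The median log2 fold change of the 124 genes was −0.04, beside 0.00 for all genes. The split depended on the correction for length and GC content, after which 20 rose and 19 fell, and with total-count scaling 10 rose and 32 fell.

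**Figure D4:**
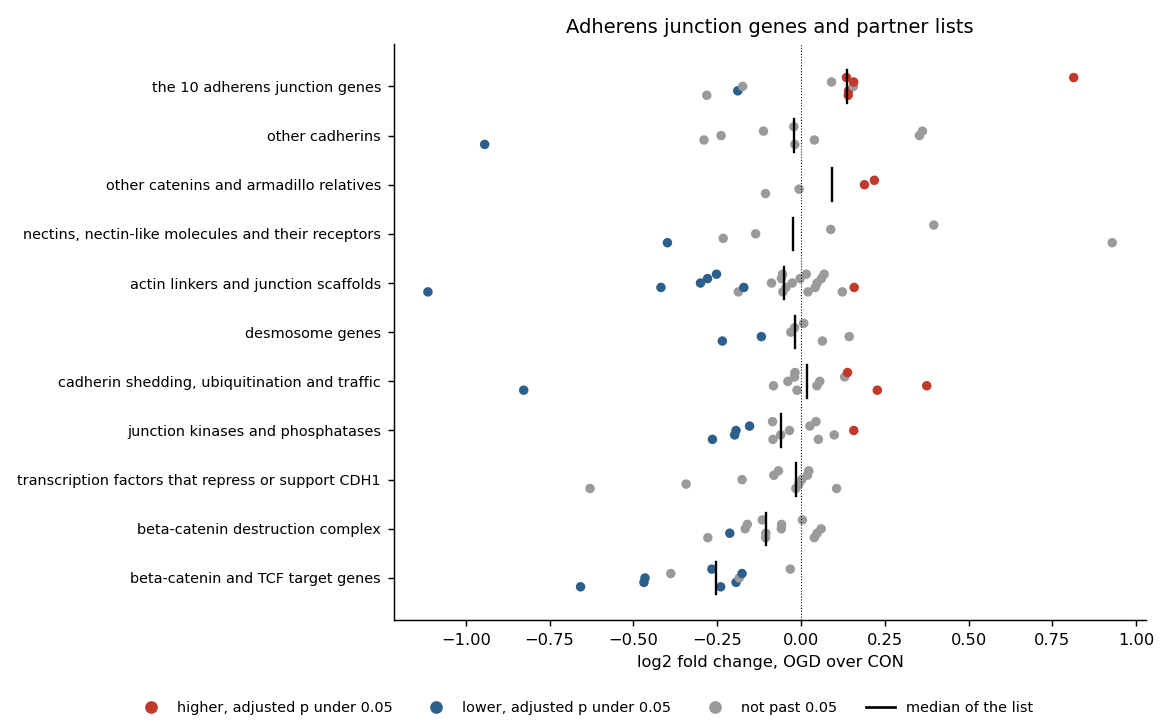
Log2 fold change of OGD over CON (horizontal axis) for the 10 adherens junction genes and for 10 of the 11 lists of partner genes, 1 point per gene; red points were higher and blue points lower at an adjusted p under 0.05, grey points did not pass, and black ticks mark list medians. The list of beta-catenin and TCF targets has its median at −0.25, with 7 blue points and no red one.

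Among the other cadherins, 1 of 9 measured genes fell and none rose (edgeR, with 1 lower and 0 higher at an unadjusted p under 0.05, and 1 lower and 0 higher with DESeq2). CDH4, or R-cadherin, fell to 2.64 ± 0.35 CPM in OGD libraries, against 5.09 ± 1.15 CPM in CON libraries (log2 fold change −0.94 ± 0.20, edgeR adjusted p = 0.000422), and passed under all 17 settings. CDH3, or P-cadherin, had a value of −0.11 ± 0.10, and CDH13, a cadherin without a cytoplasmic tail, of −0.29 ± 0.16, and neither passed (adjusted p = 0.498 and 0.229). CDH24 had the highest level per length among all cadherins of both lists, with 15.99 CPM per 1000 bases in OGD libraries and 15.5 in CON libraries, and a log2 fold change of 0.04 ± 0.06 (adjusted p = 0.702).

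Of 4 other catenins and relatives, 2 rose and none fell (edgeR, with 2 higher and 1 lower at an unadjusted p under 0.05, and 2 and 0 with DESeq2). The alpha-catenin relative CTNNAL1 rose by 0.22 ± 0.04 (edgeR adjusted p = 6.87e-05). CTNNBIP1, which encodes an inhibitor of the binding of beta-catenin to TCF, rose by 0.19 ± 0.06 (adjusted p = 0.013), and did not pass without CON replicate 1, OGD replicate 1 or OGD replicate 2. Of 6 nectins and relatives, 1 fell and none rose (edgeR, with 1 higher and 2 lower at an unadjusted p under 0.05, and 0 and 1 with DESeq2). It was PVR, the poliovirus receptor, which binds nectins on neighbouring cells and fell to 71.2 ± 3.47 CPM in OGD libraries, against 93.8 ± 5.29 CPM in CON libraries (−0.40 ± 0.05, adjusted p = 1.21e-07). NECTIN1 (−0.14) and NECTIN3 (−0.23) did not pass (adjusted p = 0.254 and 0.107), but NECTIN3 passed after the length and GC correction (−0.29, adjusted p 0.0326).

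Of 22 actin linkers and scaffolds, 1 rose and 6 fell, where 10.2% of all genes rose and 9.48% fell. TES (−0.25 ± 0.05), LPP (−0.28 ± 0.05), LIMD1 (−0.30 ± 0.06) and WTIP (−0.42) fell. These 4 encode LIM domain proteins, as do ZYX (−0.06), TRIP6 (0.02), AJUBA (−0.05) and LIMA1 (−0.09) of the same list, which did not pass (edgeR adjusted p = 0.38, 0.871, 0.52 and 0.595). After the length and GC correction LPP was at −0.17, LIMD1 at −0.16 and WTIP at −0.25, still past the threshold. The other genes that fell were EVL (−0.17) and the talin gene TLN2 (−1.11, at 1.81 CPM in OGD libraries and 3.89 CPM in CON libraries). VASP, which promotes actin filament growth, rose (0.16). With the length and GC correction 5 rose and 6 fell, ACTN1, SORBS3, TLN1 and ENAH being the further genes that rose. TLN1 changed sign: it was at −0.03 before the correction, with every OGD library below every CON library, and at 0.12 after it. Of 7 desmosome genes, 2 fell and none rose (edgeR, with 0 higher and 2 lower at an unadjusted p under 0.05, and 0 and 2 with DESeq2). Desmocollin 3, DSC3, fell by 0.23 on the log2 scale, and desmoplakin, DSP, fell by 0.12, but DSP was at 0.01 once length and GC were corrected for. The libraries of the 2 groups overlapped in DSC3. No desmosome gene changed without CON replicate 1, CON replicate 3 or OGD replicate 3, and DSC3 alone changed without OGD replicate 1 or 2.

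In the list of cadherin shedding, ubiquitination and traffic, 3 of 12 genes rose and 1 fell. Of all genes, 10.2% rose and 9.48% fell. RAB11A, a GTPase of recycling endosomes, rose to 249 ± 5.51 CPM in OGD libraries, against 192 ± 2.55 CPM in CON libraries (0.37 ± 0.04, edgeR adjusted p = 8.44e-10). APH1A, a gamma-secretase subunit, rose by 0.23 ± 0.05, and ADAM15, a membrane metalloprotease, by 0.14 ± 0.04. PSEN2 fell (−0.83, at 1.37 CPM in OGD libraries and 2.43 CPM in CON libraries). Without CON replicate 3, OGD replicate 1 or OGD replicate 2 the count of 4 was 2, namely RAB11A and APH1A, and ADAM15 and PSEN2 each passed in 13 of 17 settings.

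Among 13 junction kinases and phosphatases, 1 rose and 4 fell, where 10.2% of all genes rose and 9.48% fell. The receptor phosphatases PTPRJ (−0.26 ± 0.05) and PTPRF (−0.19 ± 0.04) and the phosphatase PTPN14 (−0.20 ± 0.05) fell, and after the length and GC correction PTPRF (−0.05) and PTPN14 (−0.07) no longer passed (edgeR adjusted p 0.25 and 0.213). Of the SRC family kinases, SRC fell (−0.15) and YES1 rose (0.16). After the correction SRC did not pass either (−0.09, edgeR adjusted p 0.146), so that PTPRJ alone was lower (−0.16), and YES1 and the kinase gene CSNK2A1 were higher.

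None of the 11 measured transcription factors that repress or support CDH1 passed (edgeR, with 0 higher and 1 lower at an unadjusted p under 0.05, and 0 with DESeq2). SNAI1 was at 5.72 ± 0.26 CPM in OGD libraries and 5.78 ± 0.63 CPM in CON libraries (edgeR adjusted p = 0.967). ZEB1 was at 18.7 ± 0.88 CPM in OGD libraries and 18.6 ± 1.20 CPM in CON libraries (adjusted p = 0.993). SNAI2 was at 1.28 ± 0.41 CPM in OGD libraries and 1.19 ± 0.23 CPM in CON libraries (adjusted p = 0.882). ZEB2 was at 0.43 ± 0.08 CPM in OGD libraries and 0.664 ± 0.21 CPM in CON libraries (adjusted p = 0.412). ESRP1, a splicing regulator in this list, was lower after the length and GC correction (−0.20, adjusted p 0.0222), with total-count scaling and without CON replicate 3. TWIST1 was not analysed here.

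Beta-catenin also acts as a transcriptional coactivator, and most measured genes in the list of its TCF targets fell. Of 10 measured targets, 7 fell and none rose (edgeR, with 0 higher and 7 lower at an unadjusted p under 0.05, and 0 and 7 with DESeq2), where 9.48% of all genes fell. Their median log2 fold change was −0.25. CCND1, cyclin D1, was at 623, 594 and 565 CPM in OGD replicates 1, 2 and 3, against 693, 668 and 677 CPM in CON replicates 1, 2 and 3 (−0.19 ± 0.04, edgeR adjusted p = 0.000324). NOTUM, a secreted Wnt inhibitor, was at 12.9, 13.3 and 12.9 CPM in OGD replicates 1, 2 and 3, against 17.4, 16.6 and 20.1 CPM in CON replicates 1, 2 and 3 (−0.47 ± 0.10, adjusted p = 0.000452). LEF1, a TCF family factor, was at 6.85, 8.20 and 7.66 CPM in OGD replicates 1, 2 and 3, against 11.1, 11.3 and 8.97 CPM in CON replicates 1, 2 and 3 (−0.47 ± 0.13, adjusted p = 0.00728). In each of these 3 genes every OGD library was below every CON library.

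TCF7 (−0.27), NKD1 (−0.66), ZNRF3 (−0.24) and MYC (−0.18) also fell, while the feedback gene AXIN2 was at 4.04 ± 0.52 CPM in OGD libraries and 4.12 ± 0.56 CPM in CON libraries (−0.03 ± 0.19, edgeR adjusted p = 0.941). The count of 7 was 4 after the length and GC correction, where TCF7, NKD1 and ZNRF3 no longer passed, 4 without CON replicate 3 and 3 without OGD replicate 2. CCND1 and MYC have many other regulators, and any contribution of these was not tested. Of 13 genes of the beta-catenin destruction complex and its regulators, DVL1 fell (−0.21 ± 0.05, adjusted p = 0.00146) and none rose (edgeR, with 0 higher and 6 lower at an unadjusted p under 0.05, and 0 and 1 with DESeq2). With total-count scaling 6 of them fell, and 3 fell without CON replicate 1 or CON replicate 2, and 2 without OGD replicate 2. After the length and GC correction DVL1 alone fell (−0.13, edgeR adjusted p 0.0249). The median log2 fold change of this list was then −0.01, against −0.10 before.

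**Figure D5:**
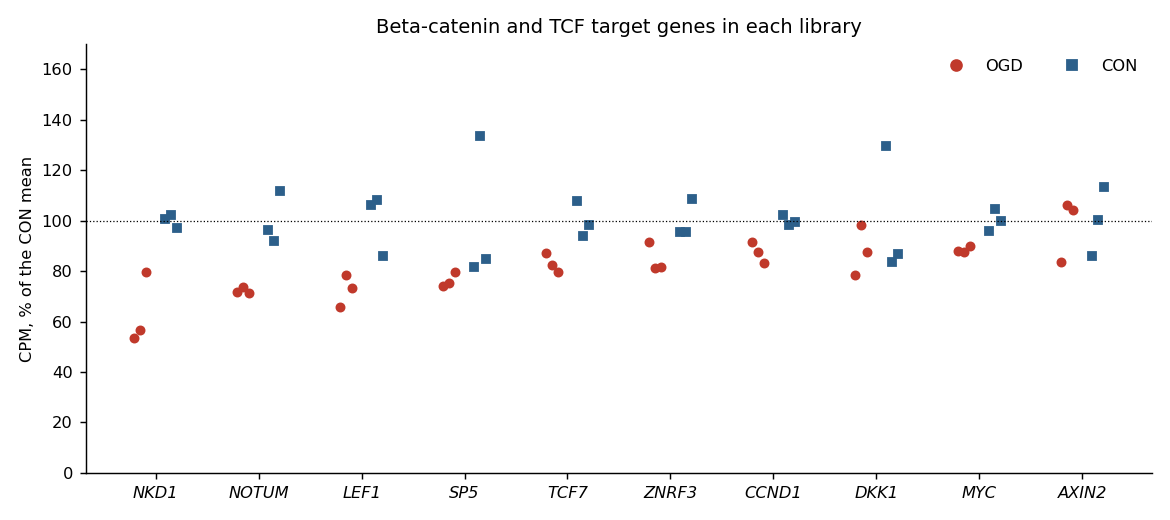
CPM of 10 beta-catenin and TCF target genes in each library as a percentage of the mean of the CON libraries, with OGD libraries as red circles left of CON libraries as blue squares. For NKD1, NOTUM, LEF1, SP5, TCF7, ZNRF3, CCND1 and MYC all OGD points lie below all CON points, while AXIN2 and DKK1 overlap. The groups did not overlap in 33% of all genes. SP5 rests on 37 reads or fewer per library and did not pass (edgeR adjusted p = 0.592).

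The endothelial label was checked against 14 endothelial markers other than CDH5, of which 4 had a row. ROBO4, an endothelial guidance receptor, fell to 3.79 ± 0.83 CPM in OGD libraries, against 6.36 ± 0.35 CPM in CON libraries (−0.75 ± 0.17, edgeR adjusted p = 0.00107), and the endothelial transcription factor gene SOX18 fell (−0.33 ± 0.11, adjusted p = 0.0284). ESAM (−0.06) and EGFL7 (0.01) did not pass. The remaining 10, among them PECAM1, VWF, KDR, TEK, ERG and CLDN5, have no row and were not analysed here. The measured markers therefore bear out the endothelial label only in part. The measured epithelial markers had a higher summed level, most of it from keratin genes (next paragraph). The summed level of the 4 measured markers was 194.6 to 206.7 CPM in OGD libraries and 201.1 to 218.5 CPM in CON libraries, so CDH5 rose while none of the measured markers did (edgeR, with 0 higher at an unadjusted p under 0.05, and 0 with DESeq2).

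Of 12 epithelial markers, 8 had a row. Of these, 4 rose and none fell (edgeR, with 5 higher and 2 lower at an unadjusted p under 0.05, and 4 and 0 with DESeq2), where 10.2% of all genes rose and 9.48% fell. The summed level of these 8 was 3070 to 3123 CPM in OGD libraries and 2507 to 2732 CPM in CON libraries. Most of it came from KRT8, KRT18 and KRT7, at means of 1555, 962 and 400 CPM in OGD libraries. In CON libraries their means were 1235, 848 and 356 CPM. The other epithelial markers had means of 17.8 (CLDN4) to 57.7 CPM (EPCAM) in OGD libraries, and the endothelial markers of 3.79 (ROBO4) to 132 CPM (ESAM). These levels are not per length. KRT8 (0.33), KRT18 (0.18), KRT7 (0.17) and ELF3 (0.19) rose. EPCAM (0.14), CLDN4 (−0.25), ESRP1 (−0.18) and SPINT1 (0.06) did not pass (edgeR adjusted p = 0.0849, 0.0658, 0.0794 and 0.71). KRT19, CLDN7, GRHL2 and PRSS8 were not analysed here. The keratin transcripts thus rose in the same libraries as JUP, CTNNB1 and VCL, and their part in these results was not tested. In bulk RNA a change in the number of cells of a type and a change in RNA per cell cannot be told apart. Of the markers of fibroblasts, pericytes and smooth muscle, astrocytes, neurons and leukocytes, 12 in all had a row and none was called (edgeR, with 0 higher and 1 lower at an unadjusted p under 0.05, and 0 with DESeq2). The highest summed level of any of these lists in a library was 18.1 CPM, for neurons.

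Total counts were 31048662 to 34484647 per library, and mitochondrially encoded genes took 4.94% to 5.33% of them. Each pair of libraries was also compared by a chi-square statistic over genes, divided by its degrees of freedom. It was 15.97 to 23.5 between an OGD and a CON library and 4.07 to 7.43 between libraries of the same group, so all 15 pairs differed by more than sampling noise and each library was kept as a sample.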

How the data were processed

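The deposited table holds whole-number read counts per Ensembl gene, made by the authors, in 1 column per library. Trimmomatic, HISAT2, SAMtools, featureCounts and edgeR are named without versions, per the submitters' processing notes. The same notes name the mouse build GRCm38, although the gene IDs are human, so the build behind the counts is uncertain. Strand setting and treatment of shared reads are not given in the sources used here. In every row the third-highest library held 10 counts or more.

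Symbols were matched for 17093 of 17104 rows. Counts were scaled by TMM and tested with edgeR 4.0.16 (R 4.3.3) by the quasi-likelihood test with robust dispersions, two-sided, over all genes, adjusted by Benjamini-Hochberg, and called under 0.05. The default filterByExpr removed 0 genes. Standard errors are the log2 fold change divided by the root of the F statistic. The fit was checked on simulated counts with planted changes larger than those of most adherens junction genes, so the check does not bear on calls of that size. Lengths are unions of GENCODE 29 exons. The length and GC correction removed a smooth trend (mgcv 1.9.3) per library on the longest transcript, fitted on 10848 protein-coding genes with an average log2 CPM above 2. The alternatives also covered scaling (RLE, total counts, upper quartile), tools (limma-voom with limma 3.58.1, DESeq2 1.42.0), no filter and a filter at 1 CPM, a replicate block and leaving out each library. The members, lists and alternatives were chosen with earlier results of these data known. Named partner genes were up to 3 called genes of smallest p per list and a few fixed by name; WTIP, EVL, TLN2, VASP, PSEN2, SRC, YES1, ZYX, TRIP6, AJUBA, LIMA1, ACTN1, SORBS3, TLN1, ENAH, CSNK2A1, ESRP1, CDH24, NECTIN1, NECTIN3, the further TCF targets and the named marker genes were named after their values were seen. Of the partner lists, 1 is counted in the totals over all lists but is not reported here on its own.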

Additional observations from a re-analysis of the deposited data

How the results depend on the processing

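Of the 10 adherens junction genes, 3 to 7 changed when 1 library was left out, against 6 with all libraries, and 2 to 6 were higher, against 5. Both lowest counts came without OGD replicate 1. DESeq2 and the length and GC correction gave 7 and 6 changed genes. The replicate numbers are not stated to pair cultures. Deviations of same-numbered libraries correlated at −0.0077 to 0.0827, and those of differently numbered libraries at −0.0591 to 0.0635. So few pairs cannot show whether same-numbered libraries shared a culture or a processing step. With the replicate block 6 of the 10 genes and 3529 of all genes passed, against 3370 without it. Among the beta-catenin and TCF targets, 7 were lower, and 4 after the length and GC correction, with or without the replicate block, and 3 to 6 when 1 library was left out. Changed partner genes numbered 37, and 27 to 36 when 1 library was left out. The table had no gene for the default filter to remove, so the fit without a filter repeats the main one.

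Signs turned for values that had not passed, from −0.18 (DKK1) to 0.11 (SNAI2), and for DSP, which had passed. With total-count scaling ZEB1 was at −0.028 and EGFL7 at −0.021. With the length and GC correction AXIN2 was at 0.011 without and with the replicate block, and DSP at 0.0078 without and 0.0080 with it. TLN1, at −0.03 in the main fit, was at 0.12 with the correction and then passed. The difference of CDH2 minus CDH1 was −0.024 with a pseudocount of 1 CPM, against 0.02. When 1 library was left out, log2 fold changes ranged over −0.082 to 0.073 for SNAI1, −0.094 to 0.34 for SNAI2, −0.036 to 0.056 for ZEB1, −0.13 to 0.072 for AXIN2, −0.29 to 0.047 for DKK1 and −0.047 to 0.046 for EGFL7. The differences then ranged over −0.044 to 0.067 for CDH2 minus CDH1 and −0.011 to 0.036 for JUP minus CTNNB1. The cause was not tested. With the longest transcript as length, the CDH5 share was higher in OGD libraries by 16.7 percentage points. Depth limits CDH1, with 43 reads or fewer in each library.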
